A study of Mus musculus with 6 samples.

Results

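The AP-1 transcription factor genes Fos, Fosb, Fosl1, Fosl2, Jun, Junb and Jund and the early response genes Egr1, Atf3 and Ier2 were examined in the dental pulp of mice with and without the collagenase gene Mmp13. They were chosen by gene symbol and not by a rule on measured values, but with earlier results of these data known. All 10 were found among the 53342 genes of the table. RNA sequencing was carried out on 3 WT and 3 Mmp13-/- (MMP13KO) samples, each an independent biological sample from C57BL/6 mice aged 3 months. The knockout was a homozygous germline deletion on the C57BL/6 background, so MMP13 was missing from every cell type of the animal and throughout development, and WT mice of that strain were the controls. Neither genotype received a further treatment. Samples carry the labels' own numbers, which are WT 2, 4 and 5 and MMP13KO 1, 2 and 6, and values per sample are given in that order. The pulp is named as molar pulp in the labels and as incisor pulp in the study's methods. The sample titles name the molar for the WT samples only. No sequencing batch or date is given.

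AP-1 is a dimer of a JUN protein with a FOS, JUN or ATF protein, joined through leucine zippers. Cells switch on many of these genes within minutes of a growth factor, cytokine, mechanical load or wound, without first making new protein, which is why they are called immediate early genes. The JUN proteins can pair with themselves, while the FOS proteins need a JUN partner. In mineralized tissues AP-1 and RUNX2 act on the promoter of Mmp13, the gene for the collagenase MMP13. The FOS and JUN genes described here thus stand upstream of the gene deleted in these mice.

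Promoter stretches are shown for Mmp13, whose promoter is a textbook AP-1 target, and for the members whose promoters held one of the motifs searched. Sequences are from RefSeq on GRCm38.p6, which held an entry for 7 of the 10 members. Each line gives the 120 bases before the annotated start, 5' to 3' on the gene's strand, and capitals mark the AP-1 site (TGANTCA), the related letters TGACATCA in Jun, the RUNX core (ACCACA) in Mmp13 and the core of the cyclic AMP response element (CRE), which reads TGACGT in Fos. In Atf3 that core lies on the other strand and so reads ACGTCA. They lie at chr9:7272394-7272513 (+ strand) for Mmp13, chr12:85473770-85473889 (+ strand) for Fos, chr4:95052223-95052342 (- strand) for Jun and chr1:191183334-191183453 (- strand) for Atf3.
Mmp13: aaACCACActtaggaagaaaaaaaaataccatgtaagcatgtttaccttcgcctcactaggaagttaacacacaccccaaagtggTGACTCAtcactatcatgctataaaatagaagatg
Fos: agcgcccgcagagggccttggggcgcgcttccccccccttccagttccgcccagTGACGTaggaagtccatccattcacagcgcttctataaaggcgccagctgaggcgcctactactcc
Jun: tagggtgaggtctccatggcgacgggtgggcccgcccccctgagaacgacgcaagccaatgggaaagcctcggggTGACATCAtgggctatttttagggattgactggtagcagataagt
Atf3: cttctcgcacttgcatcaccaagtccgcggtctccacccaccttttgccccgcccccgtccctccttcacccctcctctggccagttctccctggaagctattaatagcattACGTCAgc

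Motifs were searched on both strands in the 250 bases before the start, and their letters were chosen after the sequences had been seen. In Mmp13, TGACTCA began 35 bases before the start and ACCACA 118 bases before it. TGANTCA was present in 6.75% and ACCACA in 14.1% of all 32851 promoter windows of that length. Fos held TGACGT from 66 bases before the start and Atf3 the same core on the other strand, ending 3 bases before it, a motif present in 6.47% of windows. Jun held TGACATCA from 45 bases before the start, which 2.93% of windows held. None of these letters was present in the windows given for Fosb, Fosl2, Junb and Jund. The full CRE TGACGTCA (1.55% of windows) and the CArG box bound by SRF (1.47%) were in no window of the members or Mmp13, that of Fos included. The windows of Fos, Jun and Mmp13 adjoin the gene start of the GENCODE annotation used for lengths, and the other windows do not. The Atf3 window (chr1:191183334-191183583) lies inside the gene (chr1:191170296-191218039, - strand), as does the Fosl2 window in its gene. Distances for Atf3 are therefore counted from an internal start. A match is a description of letters and not a site shown to be bound.

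The libraries held 21561420 to 29980236 estimated counts, and a count of 3 in a library equalled 0.10 to 0.139 CPM (reads scaled to library size). The targeted gene Mmp13 had 999.8, 1061 and 818 normalized counts in the WT samples against 8.76, 29.8 and 63.4 in the knockouts, a log2 fold change of -4.96 ± 0.46 (SE; edgeR adjusted p = 7.67e-05). Of 24534 genes tested, 51.6% passed an adjusted p of 0.05 between genotypes, 27.3% higher and 24.3% lower in MMP13KO. Of calls over 2-fold, 67.8% were higher, and 81.4% with upper-quartile factors, 77.2% with total counts alone, 78.6% with no filter on low counts and 81.0% after correction for GC content. MMP13KO 6 stood apart, with 30.5% of its counts in 1 gene against 4.48 to 6.88% in the other libraries. Odorant and vomeronasal receptor genes summed to 17.8 to 20.8 CPM in WT and to 308, 355 and 1196 CPM in MMP13KO 1, 2 and 6. All 6 odontoblast markers were detected. Dspp rose from 26142 ± 16209 to 57209 ± 12728 normalized counts (SD, n = 3) and Phex from 2814 ± 1260 to 9043 ± 1843, Col1a1 and Nes fell, and Dmp1 and Bglap did not pass the test. The Dspp groups overlapped, with WT 2 at 44593 and MMP13KO 6 at 42566. The summed level of the 6 markers, 37138 to 44908 CPM in WT and 11089 to 13893 CPM in MMP13KO, was mostly that of Col1a1.

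Of the 10 genes, 7 fell in the Mmp13-/- pulp, all by more than 2-fold, and no gene rose. Across all genes tested, 24.3% were called lower and 30.1% were called over 2-fold, 9.68% lower and 20.4% higher. The genes that fell were Fos, Fosl2, Jun, Junb, Jund, Egr1 and Ier2, and Fosb, Fosl1 and Atf3 did not pass the test. The median log2 fold change of the 10 genes was -1.24, against 0.10 over all genes tested. In 6 of the 10 (all that fell but Fos) every MMP13KO sample lay below every WT sample, a pattern of 29.1% of all genes tested, while 60.9% had groups apart in either direction and 31.8% had all MMP13KO samples higher. In bulk tissue, fewer cells that use a gene and less of its RNA per cell cannot be told apart.

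**Figure D1:**
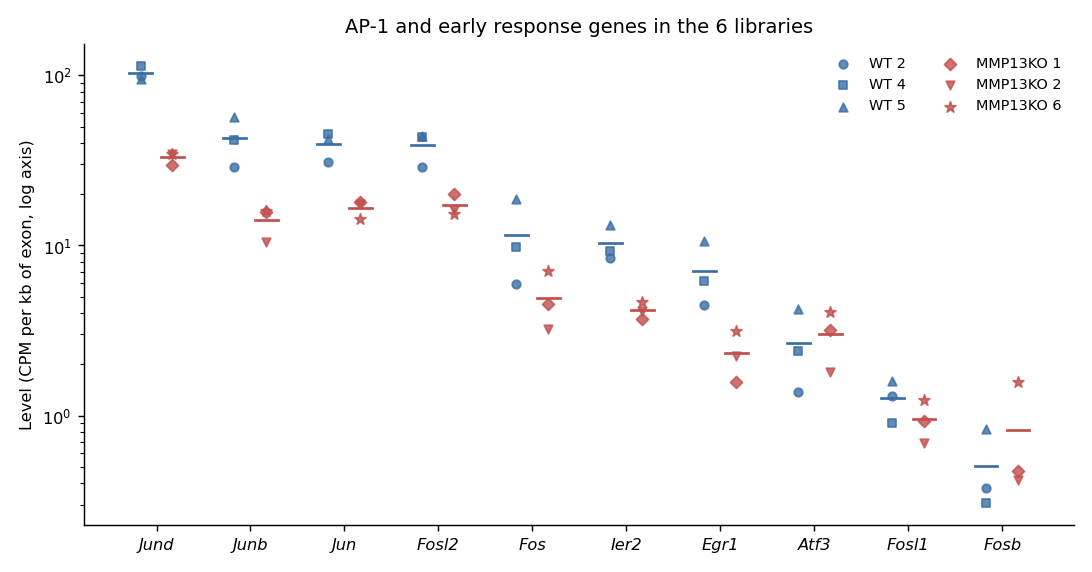
Level of each gene in every library, in CPM per kilobase of exon on a log axis, with WT in blue, MMP13KO in red, 1 marker shape per library and a line at the mean of each genotype. Jund was the highest gene in both genotypes, and the MMP13KO points lie below all WT points for Jund, Junb, Jun, Fosl2, Ier2 and Egr1.

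Levels of different genes were compared as CPM per kilobase of exon. In WT pulp Jund led with a mean of 103 CPM per kilobase (94.6 to 114). Junb followed at 42.6 (28.8 to 57.0), Jun at 39.6 (31.1 to 45.3) and Fosl2 at 38.8 (28.9 to 44.0), and the ranges of these last genes overlapped, so that their order was not resolved. Fos at 11.5 (5.94 to 18.8), Ier2 at 10.3 (8.44 to 13.2) and Egr1 at 7.06 (4.44 to 10.6) formed a middle tier with overlapping ranges. Atf3 at 2.66 (1.38 to 4.21) and Fosl1 at 1.27 (0.910 to 1.59) overlapped as well, and Fosb was the lowest at 0.504 (0.306 to 0.831). In MMP13KO the means ran from 33.0 for Jund, through 17.2 for Fosl2, 16.6 for Jun and 14.1 for Junb, to 0.823 for Fosb.

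Of the FOS and JUN families, the JUN genes encode the proteins that can bind DNA without a FOS partner, and all 3 fell. Jund, the most steadily expressed of the JUN genes, had 4504, 5140.4 and 4278 normalized counts in the WT samples against 1351, 1555 and 1568 in the knockouts. The genotypes were far apart and both were tight, with a WT mean 3.11 times that of MMP13KO and a log2 fold change of -1.64 ± 0.15 (SE, edgeR adjusted p = 7.86e-05). For Junb, which can compete with JUN for partners, normalized counts ran 1799, 2614 and 3556 in the WT samples against 982, 654 and 996 in the knockouts. Every WT sample was above every MMP13KO sample, although the WT samples were widely spread, and the log2 fold change was -1.60 ± 0.26 (edgeR adjusted p = 0.000775). Jun itself, the principal partner of FOS proteins, had 2684, 3914 and 3667 normalized counts in the WT samples against 1565, 1508 and 1237 in the knockouts. The lowest WT sample was above the highest MMP13KO sample, with a log2 fold change of -1.25 ± 0.18 (edgeR adjusted p = 0.000459).

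Summed over the family, JUN genes reached 159.5, 201 and 194 CPM per kilobase in WT and 63.7, 62.3 and 65.0 in MMP13KO. Jund made up 55.9% ± 6.87 (SD, n = 3) of that sum in WT and 51.8% ± 4.37 in MMP13KO, Jun 21.3% ± 1.61 and 26.1% ± 3.57, and Junb 22.8% ± 5.89 and 22.04% ± 4.53. For each of the JUN genes the ranges of this share overlapped between genotypes.

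The FOS genes did not move alike. Fosl2 (FRA2), a FOS protein without a strong activation domain that takes part in bone and cartilage differentiation, was the most abundant FOS gene. Its normalized counts ran 7583, 11397 and 11547 in the WT samples against 5291, 4263 and 4008 in the knockouts. The groups did not overlap, and the log2 fold change was -1.17 ± 0.21 (SE, edgeR adjusted p = 0.00152). Fos, the classical immediate early gene, had 378, 624 and 1199 normalized counts in the WT samples against 289.9, 206 and 449 in the knockouts. The groups overlapped, since MMP13KO 6 was above WT 2, and the log2 fold change of -1.23 ± 0.40 passed the test (edgeR adjusted p = 0.0248). The call did not hold without WT 5, the highest sample (log2 fold change -0.76, adjusted p 0.0658), nor with all samples under DESeq2 (adjusted p 0.0663), limma (0.0798), upper-quartile factors (0.0886), subtraction of the receptor-gene background (0.0594) or the GC correction (0.319).

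Fosb and Fosl1, the scarcest of the 10, did not pass the test. Fosb, a FOS gene known for induction by stimulation and for its stable splice form in neurons and bone, had 63.4, 51.8 and 141 normalized counts in the WT samples against 80.1, 70.4 and 267 in the knockouts. A single library, MMP13KO 6, held the high value, and the log2 fold change was 0.67 ± 0.53 with it (edgeR adjusted p = 0.313) and -0.17 without it (adjusted p = 0.752). Fosl1 (FRA1), which takes part in bone matrix formation, had 72.0, 50.1 and 87.8 normalized counts in the WT samples against 51.1, 38.2 and 68.3 in the knockouts. Its groups overlapped, with a log2 fold change of -0.43 ± 0.32 (edgeR adjusted p = 0.292). At the rate per kilobase seen over the receptor genes, a gene of Fosb's length would hold 10.1, 14.1 and 17.6% of Fosb's counts in MMP13KO 1, 2 and 6 and at most 1.11% in WT. The same share for Fosl1 was 5.15, 8.46 and 22.4% in MMP13KO and at most 0.373% in WT.

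The FOS genes together reached 36.5, 54.5 and 65.3 CPM per kilobase in WT and 26.1, 20.6 and 25.1 in MMP13KO. Fosl2 supplied 75.5% ± 6.94 (SD, n = 3) of this in WT and 72.3% ± 10.01 in MMP13KO, and Fos 21.02% ± 6.82 and 20.4% ± 6.66. Fosb supplied 1.03, 0.563 and 1.27% in WT and 1.81, 2.02 and 6.28% in MMP13KO, so that its share, though small, was higher in every MMP13KO sample. The ratio of the FOS sum to the JUN sum was 0.229, 0.271 and 0.336 in WT and 0.410, 0.330 and 0.387 in MMP13KO, with MMP13KO 2 inside the WT range. No test was made on these sums, shares and ratios, and they were not corrected for GC content, with which fold changes moved (below). GC content was 53.6% for Fosl2 and 54.1% for Fos, against 62.6% for Junb and 67.1% for Jund.

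Of the early response genes outside AP-1's core, Egr1, a zinc finger factor induced through SRF and ELK proteins, had 539.95, 747 and 1285 normalized counts in the WT samples against 191, 273 and 382 in the knockouts. All MMP13KO samples were below all WT samples, and the log2 fold change was -1.62 ± 0.33 (SE, edgeR adjusted p = 0.00271). Ier2, a nuclear protein gene induced quickly by serum, had 348, 382 and 544 normalized counts in the WT samples against 153, 170.2 and 193 in the knockouts. The groups were again apart, with a log2 fold change of -1.31 ± 0.20 (edgeR adjusted p = 0.000643). Atf3, a stress-induced factor that can dimerize with JUN proteins, had 80.7, 139 and 246 normalized counts in the WT samples against 186, 106 and 236 in the knockouts. The genotypes covered much the same range, and the log2 fold change was 0.17 ± 0.39 (edgeR adjusted p = 0.737), with the sign turning to -0.22 without WT 2 and to -0.08 without MMP13KO 6.

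**Figure D2:**
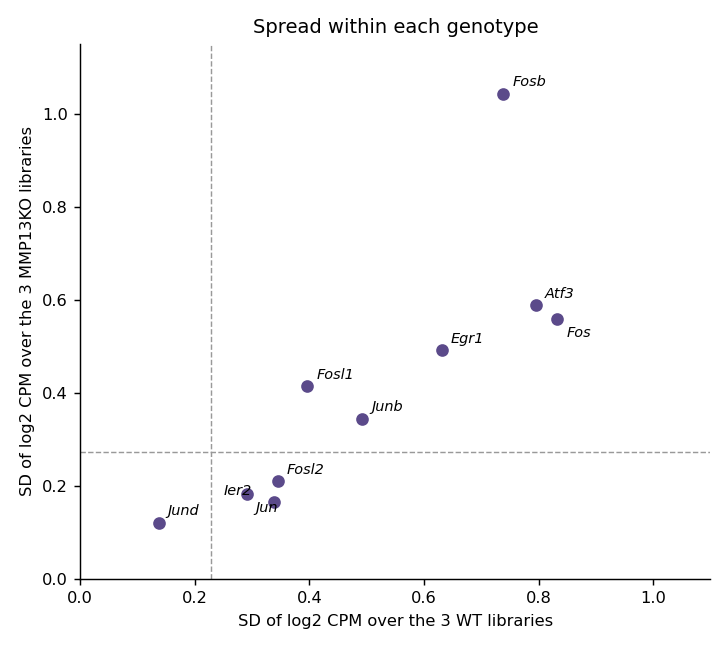
Standard deviation of log2 CPM over the 3 WT libraries (horizontal) and the 3 MMP13KO libraries (vertical) for each gene, with dashed lines at the median of all genes tested, 0.229 in WT and 0.273 in MMP13KO. Fos, Fosb, Atf3 and Egr1 lie far above both lines, and Jund lies below both.

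The genes differed in how much they varied between animals of 1 genotype. In WT the SD of log2 CPM was 0.833 for Fos, 0.795 for Atf3, 0.738 for Fosb and 0.631 for Egr1, which stood at the percentiles 94.3, 93.5, 92.1 and 88.6 of all genes tested. Fos differed 3.17-fold between the highest and the lowest WT sample, and Atf3 3.05-fold. Jund was steadier than most genes, with an SD of 0.137 in WT and 0.121 in MMP13KO (percentiles 27.9 and 14.2) and a 1.20-fold range in WT. In MMP13KO, Fosb had the widest spread at 1.04 (percentile 94.6), followed by Atf3 at 0.589 and Fos at 0.558.

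The samples also tended to keep their order across the genes, a pattern noticed after the values had been seen. WT 5 was the highest WT sample in 8 of the 10 genes (all but Jun and Jund), against 30.9% of all genes tested. WT 2 was the lowest in 7 of the 10, against 36.9% of all genes. Among 38 other early response genes, WT 2 was the lowest WT sample in 33 (86.8%) and WT 5 the highest in 21 (55.3%). Within MMP13KO, sample 6 was the highest in 8 of the 10 genes, against 37.2% of all genes, and the lowest for Fosl2 and Jun. Among the 38 other early response genes it was the highest in 14 (36.8%) and the lowest in 15 (39.5%). Genes that are induced together do not count as independent observations of a sample.

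The genes whose levels followed Fos most closely over the 6 libraries, among 10787 genes ranked, were Rgcc (Pearson r = 0.989), Baiap2 (0.980), Nr4a2 (0.980), Ttc9 (0.978) and Sytl1 (0.970). Nr4a2 is itself an early response gene of the NR4A nuclear receptor family. For Egr1 they were Cilp (0.994), 5830462I19Rik (0.988), Fst (0.986), Arhgef28 (0.984) and Ntrk2 (0.980). These are rankings over 6 libraries that share the genotype difference and the order of samples described above.

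**Figure D3:**
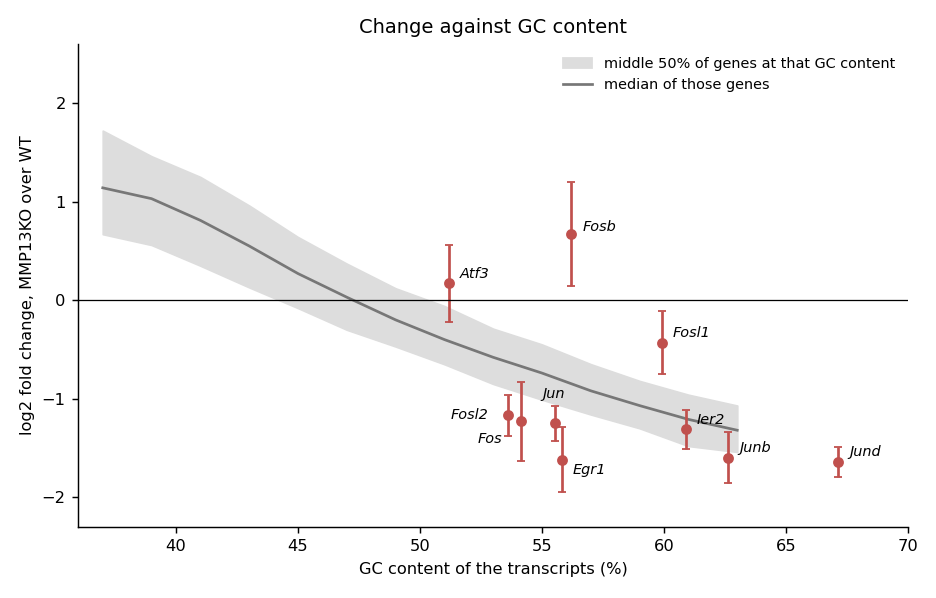
Log2 fold change (MMP13KO over WT, bars are the standard error) of each gene against the GC content of its transcripts in percent. The line is the median and the grey area the middle 50% of genes in bins of GC content. The bins hold only a part of the genes tested. The median declines with GC content, and Fosl2, Fos, Jun and Egr1 lie below the grey band, Ier2 lies within it, Junb at its lower edge and Jund beyond its right end, with Fosb, Fosl1 and Atf3 above the band.

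The fold change of genes in these libraries moved with their GC content, and the 10 genes are GC rich, from 51.2% for Atf3 to 67.1% for Jund. Medians were taken over genes within 1 percentage point of a member's GC content, drawn from only a part of the genes tested. The median difference was -0.67 (log2) for Fos (1314 genes), -0.65 for Fosl2, -0.78 for Jun and -0.79 for Egr1, each nearer 0 than the member's own value. For Ier2 that median was -1.21 (314 genes), for Junb -1.33 (107 genes) and for Jund -1.46, the last from only 13 genes, against the members' -1.31, -1.60 and -1.64. After a correction for GC content within each library, 3 of the 10 remained lower, against 13.3% of all genes tested (36.1% called in either direction, 22.8% higher). They were Fosl2 (log2 fold change -0.60, edgeR adjusted p = 0.0202), Jun (-0.51, adjusted p = 0.0142) and Jund (-0.65, adjusted p = 0.00706). For Jund, at 67.1% GC, the correction rests on few genes, with only 13 within 1 percentage point, so its corrected value is uncertain. Fos (-0.58, adjusted p = 0.319), Junb (-0.44, adjusted p = 0.196), Egr1 (-0.82, adjusted p = 0.1) and Ier2 (-0.18, adjusted p = 0.509) no longer passed, and Fosl1 changed sign to 0.65 (adjusted p = 0.185). Corrected values were 1.52 for Fosb (adjusted p = 0.0838) and 0.56 for Atf3 (adjusted p = 0.346), and the median of the 10 genes was -0.47 against 0.19 over all genes. Mmp13, at 41.7% GC, had a corrected log2 fold change of -5.66 (adjusted p = 0.000384).

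**Figure D4:**
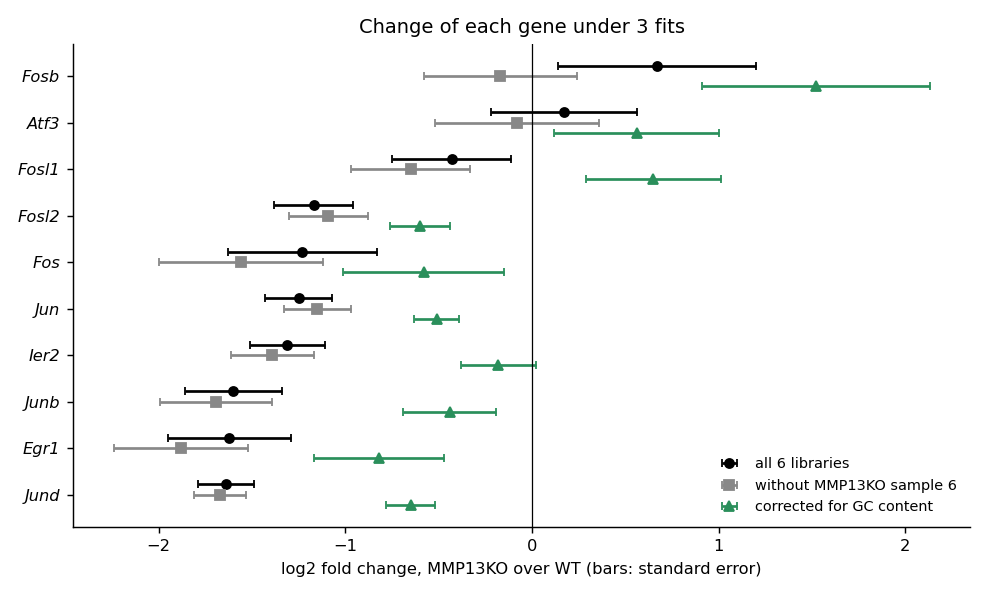
Log2 fold change with its standard error for each gene from all 6 libraries (black), without MMP13KO 6 (grey) and with a correction for GC content (green). Without MMP13KO 6 every gene keeps its sign except Fosb and Atf3, which turn negative, and all 10 corrected values lie to the right of the uncorrected ones.

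Without MMP13KO 6, 7 of the 10 genes fell, all by more than 2-fold. Over all genes that fit called 5922 of 24934 lower, 2325 of them over 2-fold. With the GC correction and without that sample, 4 of the 10 were lower, against 12.8% of all genes. Of these 4, 1 was over 2-fold lower, against 3.9% of all genes. The cell type markers also differed between genotypes. The 6 skeletal muscle markers summed to 25426 to 33626 CPM in WT and 4318 to 10945 CPM in MMP13KO (5 of 6 lower), while all 6 neutrophil, B cell and erythroid markers were higher in MMP13KO, with neutrophil sums of 119 to 243 and 652 to 1630 CPM. Endothelial sums were 203 to 230 CPM in WT and 152 to 213 CPM in MMP13KO, with 1 of the 6 markers higher, 3 lower and 2 not passing the test. The part of these cell types in the values of the 10 genes was not tested.

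The genes' positions bear on the counting. Ier2 (chr8:84661331-84662852) and Junb (chr8:84974484-84978718) lie 312 kb apart, and Jund (chr8:70698949-70700616) is on that chromosome too. Exons of Fosl1 (chr19:5447547-5455946) share 1163 bases with Ccdc85b, which had a log2 fold change of -1.56 (edgeR adjusted p = 0.000142), and exons of Jun (chr4:95049034-95052222) share 232 bases with Junos, at -0.06 (adjusted p = 0.870). Junb shares 173 exon bases with Prdx2, at 0.23 (adjusted p = 0.317), and Jund 877 with Gm11175, listed at 0 in all libraries. Whether counting used the strand is not stated, so reads in those stretches may be split between the genes. Positions are those of the GENCODE M21 annotation of GRCm38.

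The wider early response program was described with 38 other such genes, of which 26 fell and 2 rose in MMP13KO (24.3% and 27.3% over all genes tested), with a median log2 fold change of -0.69. Gadd45g, a stress-response gene that restrains the cell cycle, fell by 2.18 on the log2 scale (edgeR adjusted p = 7.67e-05), from 968, 1591 and 1535 normalized counts in WT to 312, 276 and 316. Nr4a1, an orphan nuclear receptor, fell by 1.60 (adjusted p = 0.000127), and Cebpb, a leucine zipper factor, by 1.75 (adjusted p = 0.000302). Ier5 fell by 1.34 (adjusted p = 0.000190). Klf6, a zinc finger factor, rose by 0.73 (adjusted p = 0.00186). Egr4 was at 0 in every WT library and at 15.1, 24.2 and 13.7 estimated counts in MMP13KO, at least 6.59-fold higher against a floor of 3 counts per library, while the receptor-gene rate alone would give 3.23, 3.77 and 10.3 counts. After the GC correction 7 of the 38 were lower and 4 higher, with a median of -0.05. Over all genes tested that correction left 13.3% lower and 22.8% higher, with a median of 0.19. The shares over all genes given here, uncorrected and corrected, also apply to the lists below.

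**Figure D5:**
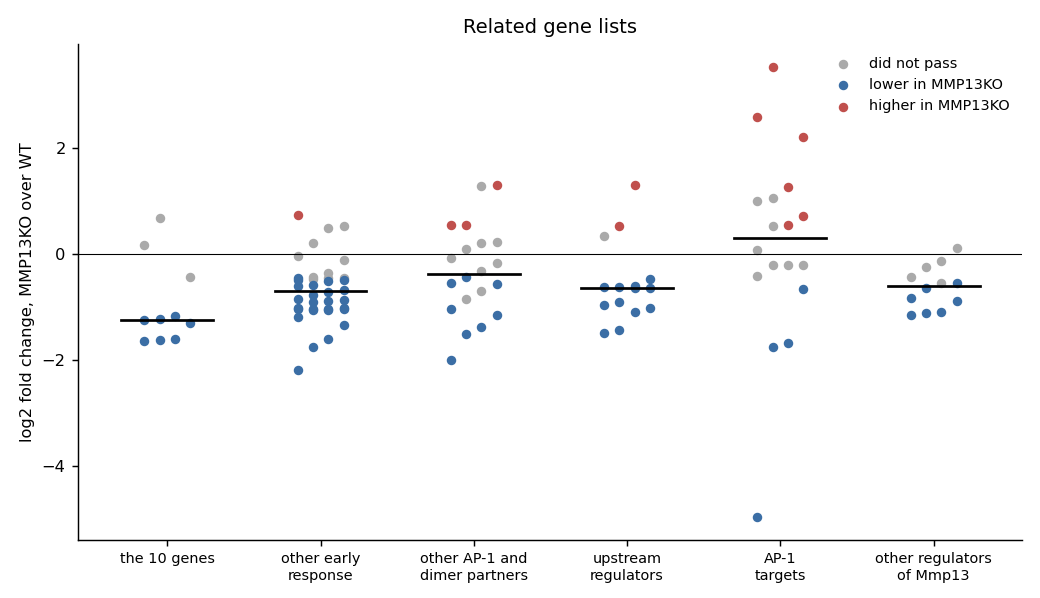
Log2 fold change (MMP13KO over WT) of the genes tested in each list, coloured by whether the gene passed an adjusted p of 0.05, with a black line at the list's median. Egr4, with no count in WT, is not drawn, the 10 genes and the other early response genes lie mostly below 0, and AP-1 target genes lie on both sides.

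Among 20 other AP-1 family members and dimer partners, 8 fell and 3 rose (median -0.38; after the GC correction 6 and 4, median -0.17). Atf5, a stress-related ATF factor, fell by 1.99 on the log2 scale (edgeR adjusted p = 4.22e-05). The small MAF factors Mafg and Mafk fell by 1.38 and 1.04 (adjusted p = 0.000218 and 0.000652). Creb1, the CRE-binding factor, rose by 1.29 (adjusted p = 0.000327), from 828, 623 and 699 normalized counts in WT to 1937, 1914 and 1397 in MMP13KO. Atf2, a JUN partner, rose by 0.54 (adjusted p = 0.0118) and Crem by 0.55 (adjusted p = 0.0150). After the GC correction Mafk (-0.21, adjusted p = 0.170), Crem (0.11, adjusted p = 0.562) and Atf2, whose sign turned (-0.29, adjusted p = 0.0632), no longer passed.

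Of 15 regulators that act upstream of early genes, 12 fell and 2 rose (median -0.64; after the GC correction 7 and 1, median -0.29). Srf, which binds the CArG boxes of Fos and Egr1, fell by 1.44 on the log2 scale (edgeR adjusted p = 0.000308), but its corrected value of -0.29 did not pass (adjusted p = 0.196). Mef2d fell by 1.49 (adjusted p = 0.000185), and the CREB coactivators Crtc3 and Crtc1 fell by 1.1 and 1.01 (adjusted p = 0.000262 and 0.000355). Creb1, counted here too, and Mef2a, which rose by 0.53 (adjusted p = 0.0307), were the genes that went up. Crtc1 (-0.12, adjusted p = 0.460) and Mef2a, whose sign turned (-0.07, adjusted p = 0.695), did not pass after the correction either.

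Of 20 genes known as AP-1 targets, 18 were tested (not Mmp1a and Il6). Among these 6 rose and 4 fell, close to the shares of all genes tested (27.3% and 24.3%), and their median was 0.30 (8 and 3 after the GC correction, median 0.61). The count of genes that fell includes the deleted gene Mmp13, whose fall was fixed by the design. The mineral-binding matrix protein gene Spp1 (osteopontin) rose by 3.53 on the log2 scale (edgeR adjusted p = 5.29e-05), from 1126, 1023 and 806 normalized counts in WT to 8664, 16752 and 8657 in MMP13KO. The prostaglandin synthase gene Ptgs2 rose by 2.20 (adjusted p = 0.000771), the chemokine gene Ccl2 by 2.57 (adjusted p = 0.0101) and the hyaluronan receptor gene Cd44 by 0.55 (adjusted p = 0.0148). Besides Mmp13 itself, the growth factor genes Tgfb1, Vegfa and Hbegf fell by 1.76, 1.67 and 0.67 (adjusted p = 4.88e-05, 0.000213 and 0.0478). The groups of Hbegf overlapped, and it did not pass after the GC correction (-0.30, adjusted p = 0.356).

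Among 12 other regulators of Mmp13, 7 fell and 0 rose, with a median of -0.60 (6 and 0 after the GC correction, median -0.22). Those with the smallest adjusted p were the hypoxia factor Epas1 (-1.11, edgeR adjusted p = 0.000493), the parathyroid hormone receptor Pth1r (-1.1, adjusted p = 0.000522), the TGF-beta signal mediator Smad3 (-1.15, adjusted p = 0.000568) and the NF-kB subunit Rela (-0.84, adjusted p = 0.000736). After the GC correction Pth1r was at -0.04 (adjusted p = 0.827) and Rela at 0.17 with its sign turned (adjusted p = 0.181), while Epas1 and Smad3 still passed. Runx2, whose binding core is shown in the Mmp13 promoter and which was chosen for mention after its values were seen, had a log2 fold change of -0.44 (adjusted p = 0.0930) and overlapping groups.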

How the data were processed

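Dental pulp RNA of 3 WT and 3 Mmp13-/- mice was sequenced, and samples were grouped by the labelled genotype. The authors used Strand NGS to obtain estimated counts for every gene, deposited unrounded, and normalized log2 values from them. The submitters' processing notes name mm10 and DESeq. Here counts were rounded and genotypes compared by edgeR 4.0.16 under R 4.3.3 (quasi-likelihood test, TMM factors, filterByExpr by genotype, Benjamini-Hochberg adjustment over all 24534 genes tested), checked first on simulated data. A gene was called at an adjusted p under 0.05, and calls over 2-fold were counted separately. Normalized counts are a gene's share of the library, after TMM scaling, multiplied by the mean library size of 27098604. The deposited log2 values, rebuilt from the counts, were equal within 0.01. The GC correction used, as offsets, a loess curve per library of log2 CPM deviations from the gene mean on transcript GC content (span 0.4, genes above a mean log2 CPM of 3). Alternatives included DESeq2 1.42.0 and limma 3.58.1. Named genes were the 10 members, Mmp13, up to 4 genes per list and direction with the smallest adjusted p, and the 5 most correlated with Fos and with Egr1. A gene that this rule names is not reported here. The members and lists were chosen with earlier results of these data known. Errors are standard errors of the fit or SDs over samples, and the floor of 3 counts covers counting error only. An exact permutation test of 3 against 3 samples cannot go below p = 0.1.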

Additional observations from a re-analysis of the deposited data

How the results depend on the processing

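Jund, Jun and Fosl2 were lower with an adjusted p under 0.05 in every alternative run, and the counts of members called lower moved past 1.5 times only with the GC correction. For Jund the GC-corrected values are uncertain, since only 13 genes lay within 1 percentage point of its GC content. No paired analysis was possible because the genotypes share 1 replicate number. The limits are 3 samples per genotype, the GC trend, the share of 1 gene in MMP13KO 6 and the unknown use of strand. Against TMM, the all-gene median moved (log2) by 0.21 with upper-quartile factors, 0.11 with total counts and 1.20 with no filter on low counts. Where a value below changed, the cause was not tested.

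Fos missed the threshold with upper-quartile factors (-0.99), DESeq2 (-1.21), limma on the deposited log2 values (-1.19), subtraction of the receptor-gene background (-1.08) and the GC correction (-0.58). The GC correction also left Junb (-0.44), Egr1 (-0.82) and Ier2 (-0.18) short of it and turned Fosl1 to 0.65, with 3 members lower and 0 over 2-fold lower. The GC correction without MMP13KO 6, added after seeing the data, gave 4 members lower, 1 of them over 2-fold, with Fos at -1.0, Junb at -0.57 and Ier2 at -0.30 not passing and Fosl1 at 0.38. Leaving out 1 library at a time gave log2 fold changes from -1.62 (without WT 2) to -0.76 (without WT 5) for Fos, -0.22 to 0.59 for Atf3 and -0.17 to 1.14 for Fosb, with Atf3 negative without WT 2 (-0.22) or MMP13KO 6 (-0.08) and Fosb without MMP13KO 6 (-0.17).

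Of all genes, those over 2-fold lower numbered 1338 with upper-quartile factors and 898 with the GC correction, those lower 3065 with total counts and 3261 with the GC correction, those higher 12716 with no filter, and those over 2-fold higher 3006 with at least 10 counts in every sample and 11258 with no filter.

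With upper-quartile factors the list medians were -0.48 (other early response), -0.18 (AP-1 partners), -0.43 (upstream regulators), 0.50 (AP-1 targets) and -0.40 (Mmp13 regulators), with 6 partners higher and 5 lower and 1 Mmp13 regulator higher. With total counts, 15 other early response genes, 5 partners, 6 upstream regulators and 3 Mmp13 regulators were lower, 1 upstream regulator was higher, and the medians of partners and upstream regulators were -0.25 and -0.50. With at least 10 counts in every sample, 1 other early response gene was higher and the medians were -0.26 (partners), -0.52 (upstream) and 0.06 (targets). With no filter, 1 partner and 1 upstream regulator were higher, with medians of -0.49 (partners) and 0.43 (targets). With limma, 1 upstream regulator and 3 targets were higher and the partners' median was -0.45. Background subtraction left 1 other early response gene higher, with medians of -0.24 (partners), -0.52 (upstream) and 0.44 (targets). With the GC correction, 4 other early response genes were higher and 7 lower (median -0.05), 1 upstream regulator was higher and 7 lower (median -0.29), and the medians of partners, targets and Mmp13 regulators were -0.17, 0.61 and -0.22.

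Leaving out 1 library at a time, the medians ran from -0.89 to -0.64 (other early response), -0.49 to -0.30 (partners), -0.81 to -0.57 (upstream), 0.06 without WT 2 to 0.35 (targets) and -0.82 to -0.58 (Mmp13 regulators). The partners called higher numbered 1 without WT 4, WT 5 or MMP13KO 1 and up to 3 otherwise, and the upstream regulators called higher 1 without any library but MMP13KO 6, and 2 without that one.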
